A study of Arabidopsis thaliana with 18 samples.

Results

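The miRNA families mir161, mir173 and mir400 of Arabidopsis thaliana were followed across 18 small RNA libraries. Members were all sequences deposited under these family names, which came to 25 of the 476 sequences and 3 of the 101 families in the table. Of the 25 sequences, 18 belonged to mir161, 5 to mir173 and 2 to mir400, and none was shared with another family. The libraries came from rosette leaves of wild-type Col-0 plants that were about 5 to 6 weeks old and grown in short days. Some plants had no treatment, some had a mock treatment, and some were inoculated by spraying 1000000 spores per ml of the fungus Alternaria brassicicola in 0.01% Silwet, a wetting agent. Infected leaves were taken on day 3, and neither the harvest day of the untreated and mock plants nor what the mock treatment held, Silwet included, is given in the sources used here. For each treatment there were libraries of all small RNA in the leaf (total) and of small RNA pulled down with an antibody against ARGONAUTE1 (AGO1), the protein that carries most miRNAs to their targets. This made 6 groups of 3 biological replicates. No group carried a transgene or a mutation. Total libraries were made with the NEXTflex kit, while the preparation of AGO1 libraries is described apart in the labels and its method is not given in the sources used here. AGO1 binding and library preparation therefore cannot be told apart.

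A plant miRNA is cut from a hairpin transcript, is loaded into an ARGONAUTE protein and guides it to transcripts with a nearly complementary site. Pairing is most strict at the seed, the bases near the 5′ end of the miRNA. The miR161 and miR400 sequences are known to target transcripts of pentatricopeptide repeat (PPR) proteins, a large family that processes RNA in mitochondria and chloroplasts. Cleavage by miR161 can turn a PPR transcript into a template for secondary small interfering RNAs (siRNAs). The miR173 sequence targets the non-coding TAS1 and TAS2 transcripts, whose phased siRNAs in turn act on further PPR and other transcripts. The length of 22 nt is a known feature of miRNAs that start such siRNA production.

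The sequences that carried most reads of the 3 families are shown because the comparisons below rest on their 5′ ends and lengths. They are read 5′ to 3′ as DNA letters from the deposited table, with the seed, bases 2 to 8, in capitals.
miR161.2, 21 nt: tCAATGCAttgaaagtgacta
miR161.2, 20 nt: tCAATGCAttgaaagtgact
start 1 base upstream of miR161.1, 21 nt: tTGAAAGTgactacatcgggg
miR161.1, 21 nt: tGAAAGTGactacatcggggt
miR161.1, 20 nt: tGAAAGTGactacatcgggg
miR173, 22 nt: tTCGCTTGcagagagaaatcac
miR400, 21 nt: tATGAGAGtattataagtcac
Positions are those of the TAIR10.1 copy of the genome at RefSeq, in which 461 of the 476 sequences matched as often as the deposited table states for TAIR10. The first 5 sequences overlap on the plus strand of MIR161 (AT1G48267, chr1:17825685-17825857). The 21-nt miR161.2 lies at chr1:17825722-17825742 and the 21-nt miR161.1 at chr1:17825731-17825751. The upstream start lies between them at chr1:17825730-17825750, so its seed is that of miR161.1 moved by 1 base. Both differ from the seed of miR161.2. MIR173 (AT3G23125) lies at chr3:8236153-8236254 and its 22-nt product at chr3:8236161-8236182, both on the plus strand. MIR400 (AT1G32582, chr1:11785936-11786037) lies inside the gene AT1G32583, and its 21-nt product lies at chr1:11785947-11785967 on the plus strand. The miR400 sequence had a second exact genome match at chr1:2014950-2014970, in the coding sequence of the PPR gene AT1G06580 and antisense to it.

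Sites complementary to these sequences were searched in the transcripts of 32083 genes with a penalty of 1 per mismatch and 0.5 per G:U pair, doubled at positions 2 to 13 of the miRNA, up to a score of 4. A site found in this way is a description of letters and not a measured target. The 22-nt miR173 had sites in 3 genes, TAS1A, TAS1C and TAS2, and in no other. These sites are shown because they are the match of miR173 to the siRNA-producing transcripts, with the bases opposite the seed in capitals and the transcript strand read 5′ to 3′.
TAS1A (AT2G27400), chr2:11722081-11722102, minus strand: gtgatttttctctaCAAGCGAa
TAS1C (AT2G39675), chr2:16537890-16537911, minus strand: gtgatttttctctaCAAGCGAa
TAS2 (AT2G39681), chr2:16539991-16540012, minus strand: gtgatttttctctcCAAGCGAa
The miR400 sequence had sites in 24 genes, of which 17, or 70.8%, were annotated as PPR, against 0.870% of all genes searched. Its best site, with a score of 0, was the antisense match in AT1G06580. The 21-nt miR161.2 had sites in 22 genes, of which 13 (59.1%) were PPR genes. The 21-nt miR161.1 had sites in 13 genes with 6 PPR genes (46.2%), and the sequence 1 base upstream in 14 genes with 7 PPR genes (50%). Most of the other genes with a miR161 or miR400 site bore the annotated name tetratricopeptide repeat (TPR)-like, a related repeat. They made up 6 of the 13 for miR161.1, 7 of the 22 for miR161.2 and 5 of the 24 for miR400. These counts go by product name alone, so a PPR protein annotated under another name is not counted as PPR. The gene AT1G62670, named RNA processing factor 2, was counted as neither. Whether the genes named TPR-like hold PPR repeats was not tested. All 13 genes of miR161.1 were among the 14 of the upstream start and among the 22 of miR161.2, where they made up 59.1%. The miR161.2 and miR400 lists shared 14 genes, 63.6% of the first and 58.3% of the second, with no overlap of the sites themselves. The PPR gene AT5G41170 shows how close the sites of both miR161 products lie, with the bases opposite the seeds again in capitals.
AT5G41170, site of miR161.1, chr5:16479693-16479713, minus strand: aacctgatgtaatCACTTTCa
AT5G41170, site of miR161.2, chr5:16479684-16479704, minus strand: taatcactttcaaTGCATTGa
AT1G06580, site of miR400, chr1:2014950-2014970, minus strand: gtgacttataataCTCTCATa

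Counted in units of 1000000, miRNA reads numbered 0.754 to 3.03 per total library and 10.8 to 20.3 per AGO1 library, so low values are more exact in the AGO1 libraries. The share of genome-matched reads that were miRNA was 2.53 to 2.76% in total untreated, 5.33 to 13.2% in total mock, 7.76 to 11.7% in total Alternaria and 77.8 to 83.4% in AGO1 libraries. The 7 listed families that match fragments of ribosomal, transfer or other RNA summed to 23075 to 70254 counts per 1000000 miRNA reads (CPM) in total untreated, 3907 to 10894 in mock and 2040 to 6537 in Alternaria libraries. In AGO1 libraries the same sum was 8.63 to 28.8 CPM. The part of these shifts in the results below was not tested, beyond the scalings given. The pollen family mir845 was at most 3.71 CPM in AGO1 libraries and was too low to test in total libraries. The root family mir846 averaged 36.6 ± 13.4 CPM in total untreated, 93.8 ± 27.2 in mock and 178 ± 99.3 in Alternaria libraries (SD, n = 3), and it passed for Alternaria against untreated (2.19 log2, limma adjusted p = 0.00951). In AGO1 libraries it averaged 115 ± 3.43, 116 ± 35.5 and 218 ± 44.7 CPM in the same order, and it passed for Alternaria against mock (0.93, adjusted p = 0.0322) and against untreated (0.90, adjusted p = 0.0283). Its part in the results below was not tested. The lowest value listed in any sequencing run was 15 reads. A 0 listed for a sequence thus stands for anything from 0 to 14 reads in a run and to 28 in a library.

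The mir161 family, the overlapping guides against PPR transcripts and the start between them, was among the abundant miRNAs, and its groups overlapped across treatments. It made up 2.64 to 3.88% of miRNA reads in total libraries, where it ranked 13th of 101 families, and 1.26 to 3.05% in AGO1 libraries, where it ranked 9th. In total RNA its level was 41286, 28463.5 and 33354 CPM in the untreated replicates, 35811, 31755 and 31275 in mock, and 32250, 26741 and 33244 in Alternaria. Ordered from the highest mean, the groups were untreated (34368 ± 6471 CPM), mock (32947 ± 2492) and Alternaria (30745 ± 3503; SD, n = 3), and the ranges of all 3 groups overlapped. In AGO1 libraries the level was 16182, 16704 and 23058 CPM untreated, 18841, 22246 and 19737 in mock, and 18723, 21305 and 17085 in Alternaria. Their means were 20275 ± 1765 CPM in mock, 19038 ± 2128 in Alternaria and 18648 ± 3828 in untreated, again with overlapping ranges. Comparisons between treatments were made with limma on log2(CPM + 1), with p-values adjusted over all families tested. From mock to Alternaria, mir161 differed by -0.10 ± 0.23 log2 (SE; 95% interval -0.59 to 0.38, adjusted p = 0.831) in total RNA and by -0.09 ± 0.24 (-0.58 to 0.39, adjusted p = 0.918) in AGO1. Against untreated, the Alternaria libraries differed by -0.15 log2 (-0.64 to 0.34, adjusted p = 0.585) in total RNA and 0.04 (-0.44 to 0.53, adjusted p = 0.944) in AGO1. Scaled to genome-matched reads instead, which moved the median of all families by 1.80 log2, the total RNA difference from untreated was 1.62. In such whole-leaf samples a change in the share of a cell type and a change in the amount per cell cannot be told apart.

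**Figure D1:**
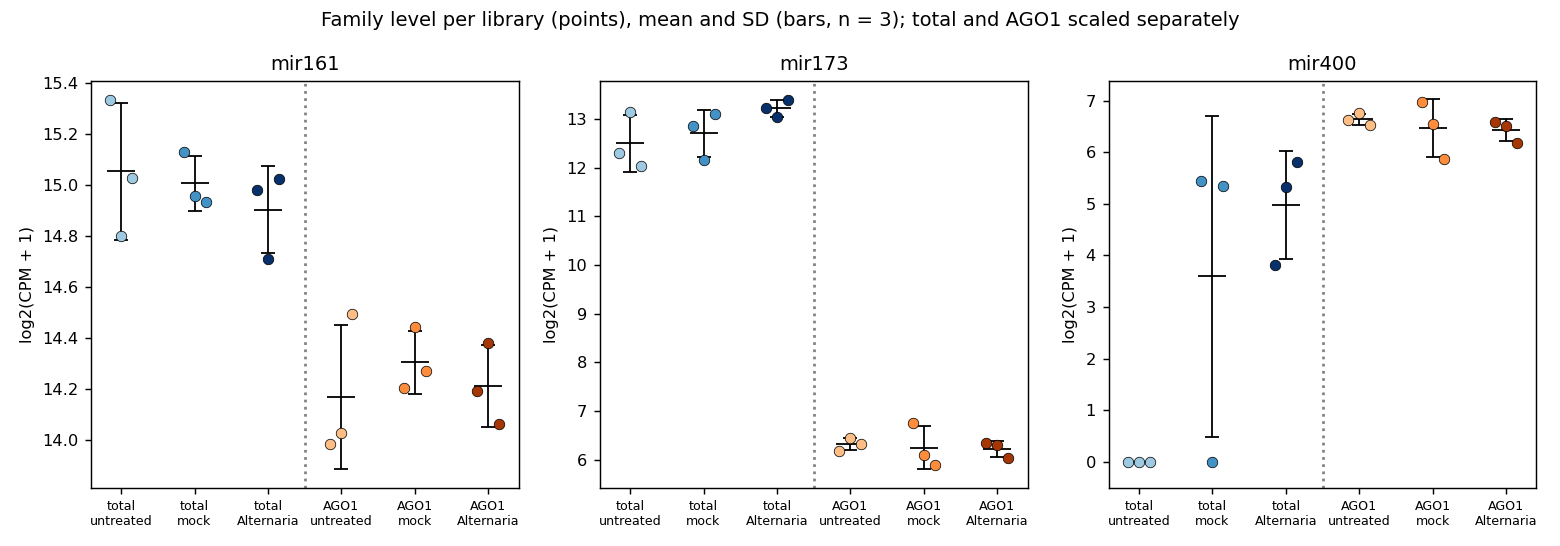
Level of each family as log2(CPM + 1) in every library (points), with mean and SD (bars, n = 3), for total and AGO1 libraries scaled separately. The mir161 groups overlap in each library type, mir173 is far lower in AGO1 than in total libraries, and mir400 is listed at 0 in the 3 total untreated libraries and in 1 mock library.

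The mir173 family, the trigger of TAS1 and TAS2 siRNAs, was highest on average in total RNA of infected leaves, but the differences between treatments did not pass the test. Its level in total RNA was 5057, 9102 and 4222 CPM in untreated, 7399, 4572 and 8812 in mock, and 9529, 8444 and 10827 in Alternaria replicates. The Alternaria values overlapped with the highest untreated and the highest mock library. Group means were 6127 ± 2610 CPM in untreated, 6928 ± 2159 with mock treatment and 9600 ± 1193 with Alternaria (SD, n = 3), and the first 2 differed by less than their spread. Alternaria exceeded mock by 0.52 ± 0.32 log2 (95% interval -0.18 to 1.21, limma adjusted p = 0.379) and untreated by 0.72 ± 0.32 (0.03 to 1.42, adjusted p = 0.0939). The median of all 77 families was 0.31 and 0.35 in these comparisons, in which mir173 ranked 31st and 29th from the highest. Both mir173 differences changed in size when a library was left out. Against mock the difference was 0.24 without mock replicate 2. It was 0.26 without untreated replicate 1, 2 or 3, which enter that difference only through the scaling. Against untreated the difference was 0.30 and 0.21 without untreated replicate 1 and 3. The second difference passed the threshold when sequences listed at 0 were set to 14 reads per run (1.05) and when levels were scaled to genome-matched reads (2.49). Under the genome-matched scaling most of the 77 families passed in this comparison. It also moved the median of all families, by the amount given for mir161 above. Bound to AGO1, mir173 was scarce, with 71.9, 86.0 and 79.2 CPM in untreated, 107, 67.4 and 58.7 in mock, and 79.6, 77.8 and 64.6 in Alternaria libraries. Neighbouring groups in the order untreated (79.1 ± 7.05), mock (77.7 ± 25.6) and Alternaria (74.0 ± 8.19) differed by less than their spread. The AGO1 difference between Alternaria and mock was -0.03 ± 0.28 log2 (-0.59 to 0.54, adjusted p = 0.976).

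The mir400 family, a guide against PPR transcripts, was barely detected in total RNA and had its reads mainly in AGO1 libraries. Its reads in total libraries were 0, 0 and 0 in untreated, 63, 0 and 133 in mock, and 18, 90 and 168 in Alternaria replicates. It was thus listed in all 3 Alternaria libraries, 2 of 3 mock libraries and no untreated library. In CPM this made 42.3, 0 and 39.8 in mock (mean 27.4 ± 23.7) and 13.003, 39.1 and 54.99 in Alternaria (35.7 ± 21.2; SD, n = 3). The listing limit of 28 reads for 1 sequence stood for 16.3, 38.8 and 31.6 CPM in the 3 untreated libraries, which is within the range of the listed values. With the zeros taken as they stand, Alternaria exceeded untreated by 4.98 ± 1.53 log2 (limma adjusted p = 0.0278), a size that depends on the pseudocount of 1. With zeros set to 14 reads per run for each mir400 sequence the difference was 0.29 (limma adjusted p = 0.585). This setting included a 19-nt form that was listed at 0 in every total library. The family sum it gave in an untreated library thus exceeded the limit of 28 reads. It also missed the threshold in run 1 alone (3.61, adjusted p = 0.172) and when untreated replicate 1, 2 or 3 or Alternaria replicate 2 or 3 was left out (4.56 to 4.82, adjusted p = 0.0567 to 0.118). Alternaria and mock differed by 1.38 ± 1.53 (-1.90 to 4.66, adjusted p = 0.598). In AGO1 libraries mir400 was listed everywhere, with 97.1, 107 and 91.8 CPM in untreated, 125, 92.8 and 57.5 in mock and 95.3, 90.4 and 71.4 in Alternaria. Here the 3 groups overlapped, and Alternaria differed from mock by -0.04 ± 0.28 log2 (-0.62 to 0.54, adjusted p = 0.976) and from untreated by -0.21 (-0.79 to 0.38, adjusted p = 0.705).

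Across these 6 treatment comparisons of families, 1 member passed the test, mir400 in total RNA of Alternaria against untreated plants. The background in total RNA was 6.49% of 77 families for Alternaria against mock, 24.7% for Alternaria against untreated and 5.19% for mock against untreated. In AGO1 libraries it was 5.06% of 79 families, 8.86% and 0% in the same order. With limma none of the 79 families passed in AGO1 mock against untreated, where 5 had an unadjusted p under 0.05, and limma-voom also called 0. Among the 3 members, limma and limma-voom called none in the comparisons other than total Alternaria against untreated. Unadjusted p-values under 0.05 without a call were found for mir173 in total Alternaria against untreated and for mir400 in total mock against untreated (3.60 ± 1.53 log2, adjusted p = 0.200), again against libraries listed at 0. Of the 14 member sequences tested in total RNA, none passed for Alternaria against mock (background 1.69% of 296 sequences; 0 with an unadjusted p under 0.05, 0 by limma-voom) or for mock against untreated (background 0%; 2 members unadjusted, 0 by limma-voom). Over all 296 sequences, mock against untreated had 47 with an unadjusted p under 0.05 and 12 calls by limma-voom. In Alternaria against untreated (background 21.3%) the 21-nt miR400 passed, with 4.90 log2 and an adjusted p of 0.0366. Of 18 member sequences tested in AGO1 libraries none passed in Alternaria against mock (background 4.12% of 267), Alternaria against untreated (5.99%) or mock against untreated (0%), with 1 unadjusted p under 0.05 and 0 limma-voom calls among members in each. In the last of these, 16 of all 267 sequences had an unadjusted p under 0.05 and limma-voom called 0.

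The 3 families stood in different places when AGO1-bound and total small RNA were set side by side in a fit of all 18 libraries. The mir173 family was 42.5-fold lower in AGO1 libraries (-5.41 ± 0.15 log2 as the mean of 3 treatments, adjusted p = 7.63e-15). On the common scale of this fit, mir173 ranged from 3406 to 6522 CPM in total and from 86.6 to 157 CPM in AGO1 libraries, so all 9 AGO1 libraries lay below all 9 total libraries. The mir400 family was higher in AGO1 libraries by 4.55 ± 0.54 log2 (adjusted p = 7.43e-07), with 95.8 to 184 CPM against 0 to 30.6 CPM and no overlap. The size of this difference rests in part on libraries listed at 0, and it was 2.94 with zeros set to 14 reads per run for each sequence. The mir161 family differed by 0.38 ± 0.10 log2 (adjusted p = 0.00241), from 17071 to 28270 CPM in total and from 22912 to 33358 CPM in AGO1 libraries, with overlapping ranges. Such differences were the rule, since 85.3% of the 95 families passed this comparison, 39 higher and 42 lower in AGO1. Within a treatment, mir173 was lower by 4.97 (untreated, background 72.6%), 5.38 (mock, 68.4%) and 5.87 log2 (Alternaria, 67.4%), each past the threshold. In the same order mir400 was higher by 7.31, 3.81 and 2.54, also past the threshold each time. The first of these rests on total untreated libraries that were all listed at 0. The last lost its call without total Alternaria replicate 1 (1.93, limma adjusted p = 0.123) and with library totals alone. The mir161 differences were 0.33 (adjusted p = 0.0998), 0.38 (0.0655) and 0.44 (0.0367), and the last lost its call without total Alternaria replicate 1, 2 or 3 (0.43, with the highest adjusted p at 0.123). The median of all 95 families was 0.33, -0.05 and -0.27 in the same order, so in untreated leaves mir161 lay at the median.

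The direction of the mir161 difference depended on the scaling, while those of mir173 and mir400 did not. As mean log2 differences of AGO1 from total, mir161 gave 1.22 with median-of-ratios factors, -0.76 with library totals alone (adjusted p = 0.000223) and 3.03 with genome-matched reads. The median of all families moved in the same comparison, from -0.04 with the trimmed mean of M-values to 0.78, -1.18 and 1.31 under these 3 scalings. Under the same 3 scalings mir173 gave -4.58, -6.55 and -2.76, and mir400 gave 5.23, 3.64 and 5.02. Ratios within a library are free of scaling. Total libraries held 3.07 to 8.16 mir161 reads per mir173 read (median 3.55), and AGO1 libraries 176 to 336 (median 264). The log2 ratio of mir173 to mir161 was -2.18 ± 0.60 in total and -7.98 ± 0.32 in AGO1 libraries (SD, n = 9), a difference of -5.81 with no overlap (exact two-sided permutation p = 4.11e-05, the smallest 9 against 9 libraries can give, adjusted 0.000288 over 7 comparisons). The ratio of mir173 to mir161 was chosen after the data had been seen, so its p-value is no independent support. The mir400 and mir173 families, far apart in total RNA, were near parity when bound to AGO1, with 0.978 to 1.38 mir400 reads per mir173 read against 0 to 0.00572 in total libraries.

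**Figure D2:**
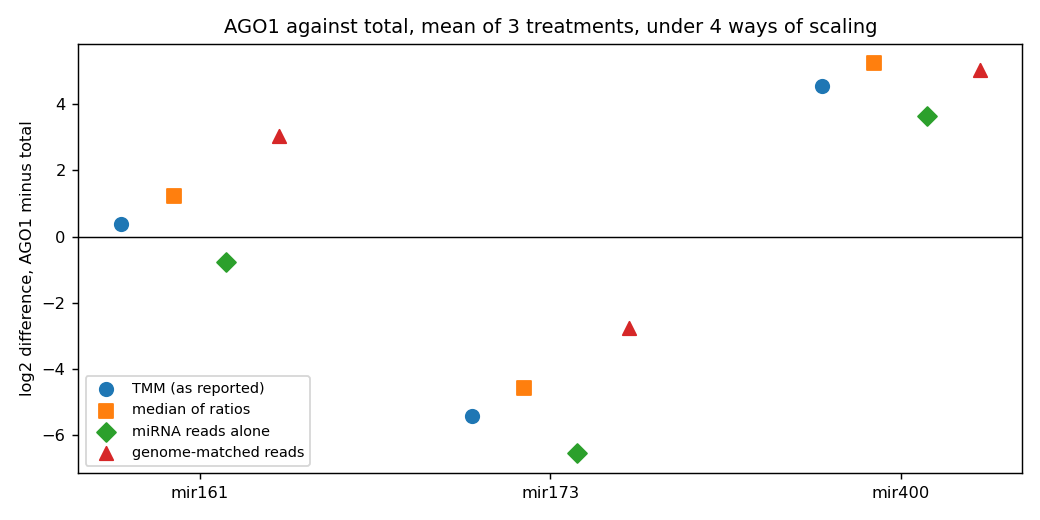
Difference of AGO1 from total libraries in log2, as the mean of 3 treatments, for each family under 4 ways of scaling (symbols). The mir173 values are below 0 and the mir400 values above 0 under each, while mir161 runs from -0.76 to 3.03.

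Whether a change with infection differed between library types was asked with interaction terms. For Alternaria against mock the interactions (AGO1 minus total) were 0.06 ± 0.25 log2 for mir161, -0.49 ± 0.38 for mir173 and -1.27 ± 1.32 for mir400, with adjusted p = 0.934, 0.789 and 0.859. No family of the 95 passed with limma (background 0%), 7 had an unadjusted p under 0.05, of which none was a member, and limma-voom called 0. For Alternaria against untreated (background 14.7%) the terms were 0.11 for mir161 (adjusted p = 0.802), -0.90 for mir173 (0.119) and -4.77 ± 1.32 for mir400 (0.0187). The mir400 term stands on the zeros of the untreated total libraries. It was -0.40 (limma adjusted p = 0.596) with zeros set to 14 reads per run for each sequence. It also missed the threshold without total Alternaria replicate 3, without AGO1 untreated replicate 1 or 2 and without AGO1 Alternaria replicate 2 or 3 (-4.49 to -4.39, adjusted p = 0.0520 to 0.0660).

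The reads of mir161 came from both overlapping guides and from a start between them, and their mix differed between total and AGO1-bound RNA. In total libraries the 21-nt sequence that begins 1 base upstream of miR161.1 led with 58.0% of mir161 reads, ahead of the 21-nt miR161.1 with 39.0%. In AGO1 libraries the order was the other way, with 58.5% for the 21-nt miR161.1 and 25.7% for the upstream start. The 20-nt miR161.2 took 0.809% in total and 9.51% in AGO1 libraries, and the 21-nt miR161.2 took 0.454% and 0.962%. The 20-nt miR161.1 took 1.49% and 5.04%. By class of 5′ end, miR161.1 held 36.1 to 44.9% of mir161 reads per total library and 45.2 to 71.2% per AGO1 library. The upstream start held 54.1 to 63.0% and 17.97 to 40.6%, and miR161.2 held 0.642 to 1.78% and 8.22 to 14.2%, so none of the 3 classes overlapped between library types.

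**Figure D3:**
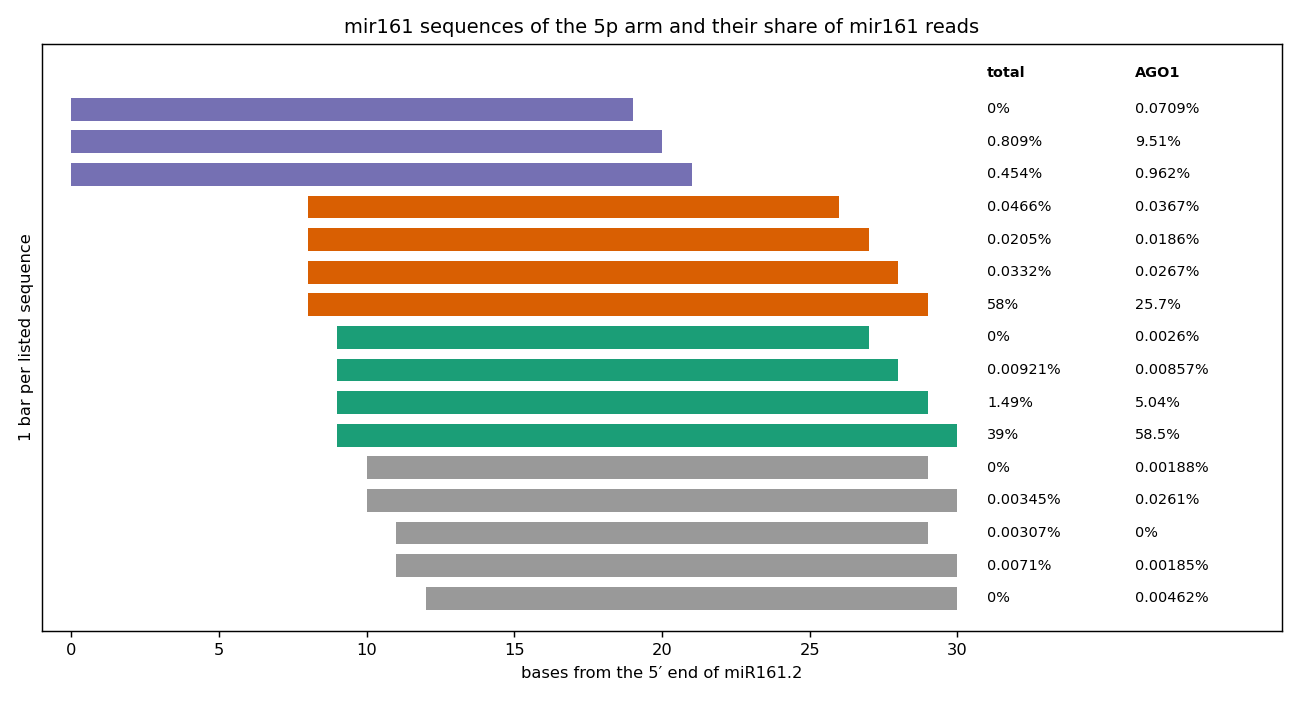
Listed mir161 sequences of the 5p arm drawn by position in bases from the 5′ end of miR161.2, coloured by 5′ end, with their percent of mir161 reads in total and AGO1 libraries at the right. The 2 starts with most reads, 8 and 9 bases in, exchange places between total (58.0% and 39.0%) and AGO1 libraries (25.7% and 58.5%).

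The remaining sequences were minor. With the upstream start, a 20-nt sequence held 0.0332% of mir161 reads in total and 0.0267% in AGO1 libraries, while 19- and 18-nt sequences had 107 and 243 reads over all total libraries and 524 and 1032 over all AGO1 libraries. With the miR161.1 start, the 19-nt sequence had 48 and 241 reads and the 18-nt sequence 0 and 73. The 19-nt miR161.2 was listed at 0 in total libraries and had 1994 AGO1 reads. Starts after that of miR161.1 gave 5 sequences: 1 base downstream, a 20-nt sequence with 18 total and 735 AGO1 reads and a 19-nt sequence with 0 and 53. At 2 bases downstream a 19-nt sequence had 37 and 52 reads and an 18-nt sequence, with a mean below 10 reads in each group, had 16 and 0, and at 3 bases an 18-nt sequence had 0 and 130. From the opposite arm of the hairpin, a 21-nt sequence had 294 and 542 reads and a 20-nt sequence 32 and 110. The mir173 reads were nearly all the 22-nt form, at 99.1% in total and 98.3% in AGO1 libraries. Its 21-, 20- and 19-nt forms had 393, 568 and 190 reads in total and 0, 190 and 0 in AGO1 libraries, and a 21-nt form that starts 1 base later had 43 and 0. The mir400 reads were the 21-nt form except for 233 AGO1 reads of a 19-nt form.

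In the fit of single sequences over 18 libraries, 20 of the 25 member sequences were tested for AGO1 against total, of which 12 were higher, 5 lower and 3 not called, against a background of 87.1% of 379 sequences. The 20-nt miR161.2 was higher in AGO1 libraries by 4.69 ± 0.17 log2 and the 21-nt miR161.2 by 2.42 ± 0.22 (SE; adjusted p = 2.57e-13 and 5.76e-08). The 21-nt and 20-nt miR161.1 were higher by 1.52 ± 0.14 and 2.64 ± 0.13 (adjusted p = 7.72e-08 and 2.17e-11). The 21-nt upstream start was lower by 0.26 log2 (-0.26 ± 0.10, adjusted p = 0.0292), the same as the median of all 379 sequences (-0.26). This call was lost without total untreated replicate 1 or 3, total mock replicate 1, AGO1 untreated replicate 2, AGO1 mock replicate 3, or AGO1 Alternaria replicate 2 or 3 (-0.25 to -0.21, adjusted p = 0.0527 to 0.0679). The direction of 2 of these depended on scaling: with library totals alone the 21-nt miR161.1 differed by -0.19, and with genome-matched reads the upstream start differed by 1.82. All 4 tested mir173 sequences were lower, the 22-nt form by -4.86 ± 0.16 and the 21-, 20- and 19-nt forms by -2.61, -2.59 and -1.81, and their sizes are limited by the listing minimum. Both mir400 sequences were higher, the 21-nt form by 4.94 ± 0.52 and the 19-nt form by 1.40.

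**Figure D4:**
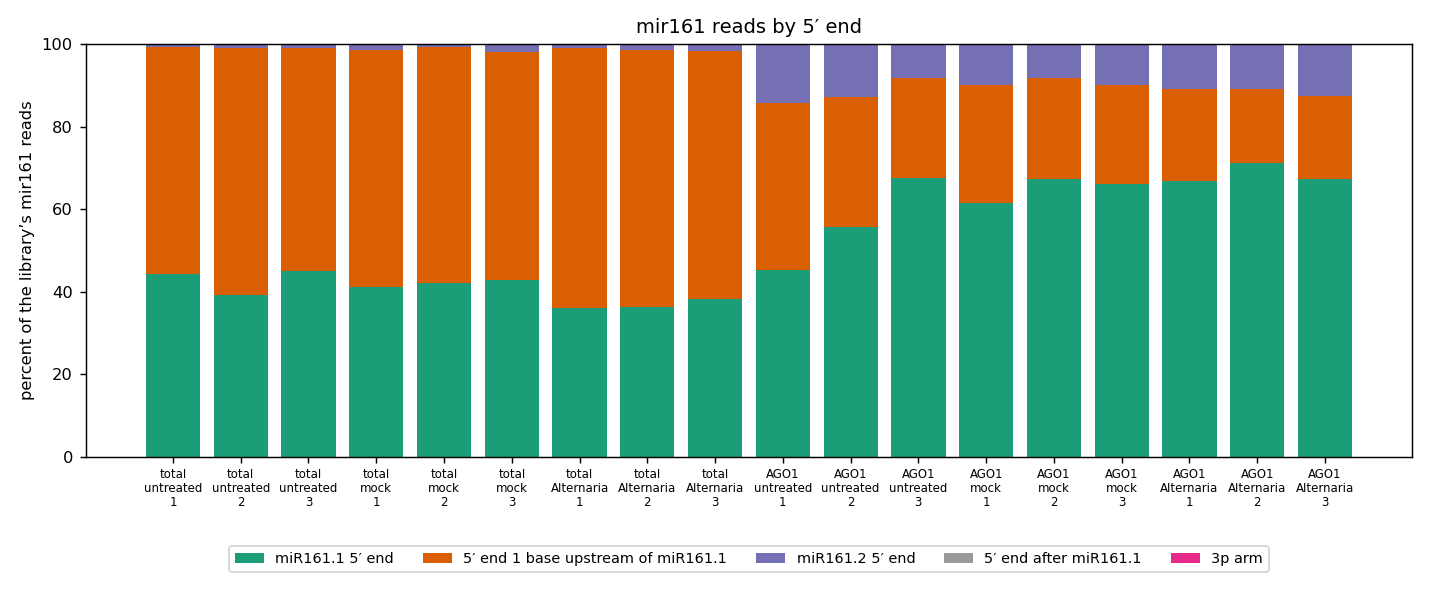
Share of each library's mir161 reads by 5′ end, as stacked bars of percent for the 18 libraries. The upstream start fills 54.1 to 63.0% of the bars of total libraries and 17.97 to 40.6% of those of AGO1 libraries.

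To compare the overlapping guides free of scaling, reads of all sequences with the miR161.1 start were divided by those with the miR161.2 start. In total libraries this ratio was 68.9, 43.7 and 45.6 in untreated, 30.6, 55.8 and 24.1 in mock, and 42.6, 27.3 and 23.97 in Alternaria replicates. In AGO1 libraries it was 3.19, 4.34 and 8.22 in untreated, 6.17, 8.18 and 6.67 in mock, and 6.13, 6.64 and 5.36 in Alternaria. Every AGO1 library thus had a lower ratio than every total library. On the log2 scale the mean was 5.24 ± 0.55 in total and 2.55 ± 0.44 in AGO1 libraries (SD, n = 9), a difference of -2.69 (exact two-sided permutation p = 4.11e-05, adjusted 0.000288 over 7 comparisons). The shortened 20-nt form of miR161.2 entered this: with the annotated 21-nt sequences alone the difference was -0.92 (adjusted p = 0.105). Between treatments the log2 ratio in total RNA was 0.77 lower in Alternaria than in untreated libraries (-0.77, no overlap), and 0.19 lower than in mock (-0.19, overlapping). With 3 against 3 libraries the smallest exact p is 0.1, so that no treatment difference of a ratio could pass 0.05. For Alternaria against untreated it was 0.1 (adjusted 0.35). In AGO1 libraries Alternaria differed from mock by -0.21 and from untreated by 0.31 (exact p = 0.2 and 0.6).

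The ratio of the upstream start to miR161.1 was higher in Alternaria than in mock or untreated total libraries, and lower in AGO1 libraries. No treatment difference of this ratio passed. This ratio, and the others that follow, were chosen after the data had been seen. In total libraries there were 1.25, 1.53 and 1.203 upstream reads per miR161.1 read in untreated, 1.39, 1.36 and 1.29 in mock, and 1.75, 1.72 and 1.57 in Alternaria replicates. All 3 Alternaria libraries were above all others of their type. In AGO1 libraries there were 0.899, 0.564 and 0.358 in untreated, 0.467, 0.364 and 0.365 in mock, and 0.331, 0.252 and 0.299 in Alternaria. Here all 3 Alternaria libraries were below all others. Such ratios of 5′ ends were not taken for other families, so whether this separation is particular to mir161 was not tested. On the log2 scale Alternaria differed from mock by 0.32 and from untreated by 0.35 in total RNA, and by -0.44 and -0.95 in AGO1 libraries (each exact p = 0.1, adjusted 0.14). Mock differed from untreated by 0.03 in total RNA and by -0.52 in AGO1 libraries (exact permutation p = 0.9 and 0.4). In AGO1 libraries mock thus already lay below untreated on average, with overlapping ranges. The difference between library types was examined by exchanging treatment labels within each type, which allows 400 regroupings and a smallest p of 0.005. The null of this test is no treatment effect in either type. Its smallest p is reached once Alternaria lies fully apart, in opposite directions, in both types. It therefore cannot decide whether responses differed between the types, and the ratio was chosen with the data seen. The interaction (AGO1 minus total) was -0.75 for Alternaria against mock and -1.30 for Alternaria against untreated (both exact permutation p = 0.005, adjusted 0.01 over 8 interactions). The second missed the threshold without AGO1 Alternaria replicate 1, 2 or 3 (-1.39, -1.19 and -1.32, with adjusted p from 0.05 to 0.07). Over all treatments the log2 ratio was 0.52 ± 0.20 in total and -1.31 ± 0.55 in AGO1 libraries, a difference of -1.84 (exact two-sided permutation p = 4.11e-05, SD, n = 9).

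The length of miR161.2 also differed, since its 20-nt form outnumbered the 21-nt form far more in AGO1-bound RNA. In total libraries there were 1.97, 3.72 and 3.10 reads of 20 nt per read of 21 nt in untreated, 2.01, 3.24 and 2.41 in mock, and 1.47, 1.36 and 1.14 in Alternaria replicates. The 3 Alternaria libraries were the lowest. In AGO1 libraries the values were 9.98, 7.06 and 10.3 in untreated, 10.6, 10.8 and 8.90 in mock, and 11.3, 12.1 and 10.9 in Alternaria, where the 3 Alternaria libraries were the highest. The log2 ratio was 1.07 ± 0.60 in total and 3.34 ± 0.23 in AGO1 libraries, a difference of 2.26 without overlap (exact two-sided permutation p = 4.11e-05, SD, n = 9). Alternaria differed from mock by -0.93 log2 in total and 0.18 in AGO1 libraries, and from untreated by -1.11 and 0.35 (each exact p = 0.1, adjusted 0.14). The interaction was 1.11 against mock and 1.45 against untreated (both exact permutation p = 0.005, adjusted 0.01). The second missed the threshold without total Alternaria replicate 3 (1.35, adjusted p = 0.05). The limits given above for this permutation test hold here too. The ratio of 20 to 21 nt was also taken for pairs of other families. Among 27 pairs of a 21-nt sequence and its 20-nt form from other families, the log2 ratio of 20 to 21 nt was lower in Alternaria than mock in 21, with a median difference of -0.37 and a range of -1.35 to 0.52. Of 25 such pairs in AGO1 libraries, 17 were lower, with a median of -0.26 and a range of -0.73 to 0.95. Against untreated, 20 of the 27 and 20 of the 25 were lower, with medians of -0.43 and -0.33. All Alternaria libraries lay lower in 9 of the 27 pairs in total RNA and all higher in 0. In AGO1 libraries they all lay lower in 9 of the 25 pairs and all higher in 1.

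The ratio of mir173 to mir161 within a library was 0.122, 0.320 and 0.127 in total untreated, 0.207, 0.144 and 0.282 in mock, and 0.295, 0.316 and 0.326 in Alternaria replicates. All Alternaria values were above those of mock, while 1 untreated library lay among them. Alternaria differed from mock by 0.62 log2 and from untreated by 0.87 (exact p = 0.1 and 0.3, adjusted 0.35 and 0.7). In AGO1 libraries the differences were 0.07 and -0.14 (exact p = 1 and 0.6), and the interactions of -0.55 and -1.01 did not pass (exact permutation p = 0.265 and 0.115, adjusted 0.303 and 0.153).

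**Figure D5:**
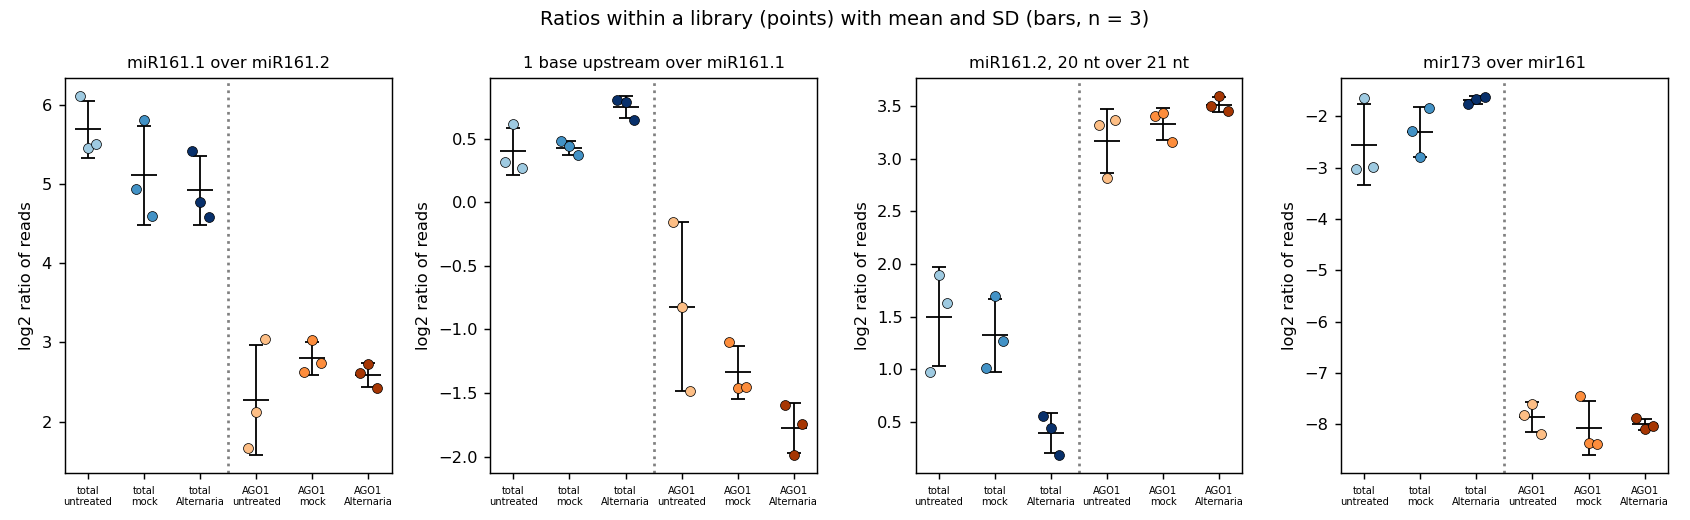
Log2 ratios of reads within each library (points) with mean and SD (bars, n = 3) for miR161.1 over miR161.2, the upstream start over miR161.1, 20-nt over 21-nt miR161.2, and mir173 over mir161. For the upstream start and for the miR161.2 lengths, the Alternaria points move in opposite directions in total and AGO1 libraries, by 0.32 and -0.44, and by -0.93 and 0.18, relative to mock.

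The list of other known triggers of secondary siRNAs held 5 families, of which mir828 was not among the deposited families. The 4 tested were mir390, which acts through another ARGONAUTE protein on TAS3, mir393, mir472 and mir825. In total RNA 1 of 4 passed for Alternaria against untreated (24.7% of all families), mir393, which was higher in Alternaria than in untreated leaves by 1.36 ± 0.34 log2 (limma adjusted p = 0.00951), from 239 ± 44.7 to 656 ± 277 CPM (SD, n = 3). None of the 4 passed for Alternaria against mock (6.49% of all families in total and 5.06% in AGO1 libraries), where their median difference was 0.26 log2 in total RNA (0.31 over all families) and -0.13 in AGO1 libraries (-0.00 over all). In AGO1 against total libraries, where 85.3% of all families passed, 1 of 4 did: mir390 was lower by 8.16 log2 (-8.16 ± 0.13, adjusted p = 3.23e-18), while mir393, mir472 and mir825 differed by -0.06, 0.33 and -0.04 and did not pass. Of the families that target the silencing machinery itself, mir162 acts on DCL1, mir168 on AGO1 and mir403 on AGO2. None of these 3 passed in the 6 treatment comparisons, in which 0 to 24.7% of all families did. In AGO1 against total libraries 2 of 3 passed, against 85.3% of all families: mir168 was lower (-5.01 log2, adjusted p = 3.47e-14), mir162 was lower (-0.49, adjusted p = 0.00613) and mir403 differed by 0.02 (adjusted p = 0.882).

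Profiles over the 6 group means of log2(CPM + 1), each centred on its own mean, were compared with those of 94 other families by the mean absolute difference. Nearest to mir161 were mir396 (0.134), mir775 (0.156) and mir1886 (0.195). Nearest to mir173 were mir168 (0.201), mir167 (0.348) and mir160 (0.407), which were likewise lower in AGO1 libraries. Nearest to mir400, at a larger distance, were mir5640 (0.879), mir850 (0.887) and mir839 (0.912).

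In the authors' deposited table of each AGO1 against total comparison, mir173 had log2 fold changes of -4.56 in untreated, -4.54 in mock and -5.22 in Alternaria. The authors' deposited table gave mir161 0.80, 1.22 and 1.11 in the same order, with adjusted p = 0.331, 0.0170 and 0.00964. For total Alternaria over untreated, the authors' deposited table gave -0.24 for mir161 and 0.59 for mir173 (adjusted p = 0.688 and 0.286), and it listed mir400 with a mean of 0 in untreated and 52.0 in Alternaria (adjusted p = 0.00299).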

How the data were processed

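Small RNA reads were trimmed with cutadapt after FastQC and matched to build TAIR10, per the submitters' processing notes. The authors deposited whole read numbers per mature sequence and run from miRProf, a table among whose lines stand family names without numbers. The authors also deposited comparison tables made with DESeq 1.2 and DESeq2 that hold a signal (group means of normalized counts), a log2 ratio and a p-value per family. The table for total mock and untreated was not used, because its group order could not be settled.

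The 2 runs of a library, repeats of 1 library, were summed. Family and sequence totals were scaled to CPM with trimmed mean of M-values factors (trims 0.3 and 0.05) in each fit. Features with 10 counts at the median depth in enough libraries and 15 in total entered the test, which ran on log2(CPM + 1) in limma (version 3.58.1, R 4.3.3) with trended, robust moderation. Its p-values were adjusted by Benjamini-Hochberg over everything tested and called at 0.05. Total and AGO1 libraries (9 each) were fitted apart for treatments and together (18) for AGO1 against total. Ratios were compared by exact permutation tests. Limits for listed zeros cover counting only. Python 3.11.15 with pandas 2.3.3, numpy 2.4.6, scipy 1.17.1 and matplotlib 3.10.9 did the rest.

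Members and lists were chosen with earlier results of these data known. Named were the 3 families, sequences whose group mean reached 10 reads at least once, all listed members of both lists, and the 3 families nearest in profile. Alternatives covered scaling, filter, pseudocount, listed zeros, single runs, limma-voom, a replicate block and left-out libraries. Replicate numbers were checked for pairing by correlating deviations from group means between same-numbered libraries. The signs were mixed and the main fits used no pairing, though this check cannot exclude that same-numbered libraries shared plants.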

Additional observations from a re-analysis of the deposited data

Results flagged for a closer look

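For 5 results the difference between AGO1-bound and total small RNA in the response to Alternaria passed its own test as reported. The interaction of mir400 for Alternaria against untreated was -4.77 log2 (AGO1 minus total), and the 3 untreated total libraries behind it were listed at 0. With zeros set to 14 reads per run for each sequence it was -0.40 (limma adjusted p = 0.596). Its call was lost in 5 fits that left out 1 library (-4.49 to -4.39). The upstream start to miR161.1 ratio had an interaction of -0.75 log2 for Alternaria against mock and -1.30 for Alternaria against untreated. The 20-nt to 21-nt ratio of miR161.2 had an interaction of 1.11 log2 for Alternaria against mock and 1.45 for Alternaria against untreated. These 4 interactions of ratios belong to a family of 8 chosen after the data had been seen. Their exact permutation p of 0.005 follows once Alternaria lies fully apart, in opposite directions, in both library types. The test therefore cannot decide whether the responses differed between types. Depth differed between the library types that the interactions set side by side, and its part in these differences was not tested.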

How the results depend on the processing

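The lower mir173 level and the higher mir400 level in AGO1 libraries, as means of 3 treatments, kept their direction and their call under each alternative, and the 4 ratios of AGO1 against total libraries did so except that miR161.1 to miR161.2 became -0.92 with exact 21-nt sequences. Results on mir161 between library types depend on the scaling, and results on mir400 in total RNA on the listing limit. The depth of total libraries sets that limit. Causes of the changes below were not tested. Values are log2 differences unless said to be counts of calls, and each pair compared is named first minus second.

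With genome-matched reads, mir161 in total RNA was 0.054 (Alternaria against mock), 1.62 (Alternaria against untreated) and 1.57 (mock against untreated), its AGO1 against total difference was 3.97 in untreated and 2.75 in mock, and its interactions were -0.38 (against mock) and -1.60 (against untreated). The mir173 values were 2.49 and 1.82 in total RNA against untreated (Alternaria and mock), 0.14 in AGO1 mock against untreated and -2.60 for the interaction against untreated. The mir400 values were 1.51 in total and 0.046 in AGO1 mock against untreated. Counts of families called were 1, 59 and 48 in the 3 total comparisons, in the order above, and 56 for the interaction against untreated.

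With zeros set to 14 reads per run, mir161 was 0.19 and 0.22 in total RNA against untreated (Alternaria and mock), -0.11 in AGO1 Alternaria against untreated, 1.501 and 1.40 in AGO1 against total (untreated and mock), and -0.074 for the interaction against untreated. For mir173 the values were 1.05 (total Alternaria against untreated) and 0.14 (AGO1 mock against untreated). For mir400 they were 0.29 (total Alternaria against untreated), 0.047 (AGO1 mock against untreated), and 0.0063 and -0.40 for the interactions against mock and untreated. The 21-nt upstream start was 1.11 in AGO1 against total. Families called numbered 2 in total Alternaria against mock and 2 in AGO1 Alternaria against untreated, and sequences 29 in total Alternaria against mock, 21 in total mock against untreated and 29 in AGO1 Alternaria against untreated.

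With library totals alone, mir161 in AGO1 against total was -0.76 as the mean and -0.97, -0.59 and -0.71 in untreated, mock and Alternaria, and its interaction against mock was -0.12. In AGO1 mock against untreated mir173 was 0.16 and mir400 0.059, and mir400 in AGO1 against total Alternaria was 1.42 and lost its call. Families called were 3 in total and 2 in AGO1 Alternaria against mock, and 1 in the interaction against mock. With median-of-ratios factors, mir161 in AGO1 against total was 0.82 in untreated and 1.31 in mock, mir173 in AGO1 mock against untreated was 0.053, and 3 families and 8 sequences were called in total Alternaria against mock.

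With all 18 libraries in the fit, mir161 was 0.0076 in total mock against untreated and -0.22 in AGO1 Alternaria against untreated, and mir400 in total mock against untreated was 3.26 and passed. Families called were then 11 in total mock against untreated, 0 in AGO1 Alternaria against mock and 1 in AGO1 Alternaria against untreated. With run 1 alone, mir161 in AGO1 against total was 0.49 and 0.75 (untreated and mock) with an interaction of -0.0059 against mock, and mir400 was -0.024 and 3.61 in total Alternaria against mock and untreated, with an interaction of -3.42 against untreated, where 9 families were called. With run 2 alone, mir161 in AGO1 against total was 0.44 and 0.68 with an interaction of -0.072, mir400 in AGO1 Alternaria against mock was 0.0020, and 2 families were called in the interaction against mock. A pseudocount of 10 left mir161 in AGO1 against total Alternaria at 0.44 without its call (adjusted p = 0.0526), and a pseudocount of 0.5 gave 1 family in the interaction against mock. With limma-voom, 19, 12 and 5 sequences were called in total Alternaria against mock, total mock against untreated and AGO1 Alternaria against mock.

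Over 15 pairs of groups, same-numbered libraries had correlations of their deviations from group means from -0.33 to 0.43. Libraries of unlike number were not compared, so these values cannot settle whether replicate numbers pair the samples. With the replicate block, counts of families called became 2 in total Alternaria against mock, 7 in AGO1 Alternaria against mock and 11 in AGO1 Alternaria against untreated, and 1 sequence was called in total mock against untreated. No call of a member family or of a ratio changed under the block.

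Without 1 library at a time, the lowest and highest values were as follows. For mir161 they were -0.63 and -0.053 in total Alternaria against untreated (called without total untreated replicate 2), -0.27 and 0.029 in total mock against untreated, -0.041 and 0.21 in AGO1 Alternaria against untreated, and -0.057 and 0.17, and -0.024 and 0.39, for the interactions against mock and untreated. In AGO1 against total, mir161 was 0.10 and 0.47 in untreated, 0.34 and 0.84 in mock, and 0.43 and 0.84 in Alternaria, and 10 of the left-out libraries gave a call in each of the first 2. For mir173 they were 0.24 and 0.72 in total Alternaria against mock, 0.21 and 0.81 in total Alternaria against untreated, -0.049 and 0.48 in total mock against untreated, -0.31 and 0.066 in AGO1 Alternaria against mock, -0.15 and 0.034 in AGO1 Alternaria against untreated, -0.10 and 0.18 in AGO1 mock against untreated, and -1.12 and -0.56 for the interaction against untreated (called without total untreated replicate 2). For mir400 they were -0.41 and 2.30 in total Alternaria against mock, 4.56 and 5.60 in total Alternaria against untreated, 2.67 and 5.405 in total mock against untreated (called without total mock replicate 2), -0.44 and 0.059 in AGO1 Alternaria against mock, -0.22 and 0.20 in AGO1 mock against untreated, 1.93 and 2.98 in AGO1 against total Alternaria, and -2.09 and 0.36, and -5.25 and -4.39, for the interactions against mock and untreated.

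For ratios the same range was -0.45 and 0.16 for miR161.1 to miR161.2 in total Alternaria against mock, -0.037 and 0.14 for the upstream start to miR161.1 in total mock against untreated, -0.44 and 0.021 (total) and -0.011 and 0.26 (AGO1) for 20 to 21 nt in mock against untreated, and -0.093 and 0.37 for mir173 to mir161 in AGO1 Alternaria against mock. Interactions ranged from -0.37 to 0.24 (against mock) and from 0.78 to 1.46 (against untreated, called without AGO1 untreated replicate 3) for miR161.1 to miR161.2. Against untreated they ranged from -1.63 to -0.97 for the upstream start, from 1.25 to 1.71 for 20 to 21 nt, and from -1.47 to -0.77 for mir173 to mir161 (called without total untreated replicate 2). Counts of families called ranged from 2 to 6, 10 to 25 and 0 to 8 in total RNA and 2 to 6, 0 to 14 and 0 to 1 in AGO1 libraries (Alternaria against mock, Alternaria against untreated, mock against untreated), and from 0 to 6 and 9 to 22 for the interactions. Counts of sequences ranged in the same order from 2 to 14, 24 to 71 and 0 to 20 in total RNA and 2 to 14, 2 to 46 and 0 to 5 in AGO1 libraries.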
